A study of Mus musculus with 5 samples.

Results

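Malat1, Neat1, Meg3, Miat, Rian, Kcnq1ot1, H19 and Sox2ot are long noncoding RNAs (lncRNAs) grouped here as nuclear-retained or imprinted, that is, expressed from 1 parental allele. They were taken by gene symbol, 8 of 49875 gene IDs in the table. The symbols were selected on earlier results of these same 5 libraries, with the eIF4E, IgG and Input values in view, so their levels and differences below are descriptions and carry no p-value. Abundances came from wild-type mouse neocortex (source given as forebrain) at E13.5. Cells were lysed with the detergent NP-40, and the supernatant of a low-speed spin was the cytoplasmic fraction. RNA was precipitated from it with an antibody against eIF4E from MBL (n = 2) or with rabbit control immunoglobulin G from Bioss (IgG, n = 1), and the fraction itself was the Input (n = 2). No mutant or treated animals were involved. Replicates are labelled biological, but which embryos or pools gave each library is not stated, so errors and p-values measure only the spread between these libraries, which may be technical.

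eIF4E binds the cap at the 5′ end of mRNAs and recruits the scaffold that brings the small ribosomal subunit, so RNA bound to it is usually read as RNA available for translation. lncRNAs are capped like mRNAs, yet most are little translated. Malat1 gathers at nuclear speckles, Neat1 builds paraspeckles, and Miat (Gomafu) forms nuclear foci in neurons. Meg3 and Rian are made from the maternal copy of the Dlk1-Dio3 cluster, where Rian carries small nucleolar RNAs. Kcnq1ot1 silences neighbouring genes on the paternal chromosome, and H19, maternally expressed and known in the cytoplasm as well, is the primary transcript of miR-675. Sox2ot is transcribed across the Sox2 gene. The libraries were primed on poly(A), whereas mature Malat1 and the long Neat1 isoform end without a poly(A) tail, and Malat1 has an A-rich stretch encoded near its end.

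Annotated 5′ ends are shown for the RNAs with a start in the RefSeq table of GRCm38.p6, 5 of the 8. Whether the RNAs in these libraries begin there, with the cap that eIF4E binds, was not tested. The first 50 bases from the start are given, with the first 5 in capitals. They lie at chr19:5802623-5802672 on the minus strand (Malat1), chr12:109540996-109541045 on the plus strand (Meg3, the upstream one of its 2 starts), chr5:112228899-112228948 on the minus strand (Miat), chr12:109603945-109603994 on the plus strand (Rian) and chr7:143296498-143296547 on the minus strand (Kcnq1ot1).
Malat1: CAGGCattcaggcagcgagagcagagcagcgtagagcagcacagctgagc
Meg3: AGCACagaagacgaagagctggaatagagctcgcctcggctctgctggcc
Miat: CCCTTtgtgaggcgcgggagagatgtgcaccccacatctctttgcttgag
Rian: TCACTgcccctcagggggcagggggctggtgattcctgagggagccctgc
Kcnq1ot1: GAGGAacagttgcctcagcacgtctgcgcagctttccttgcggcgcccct
A C followed by 4 pyrimidines at the very start, the form of terminal oligopyrimidine (TOP) leaders, was found on the transcribed strand in 1 of the 6 starts of these RNAs, that of Miat, and in 2.51% of all 32851 starts in the table.

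Some of the RNAs also span microRNA genes, Mir675 in H19, Mir770 and Mir1906-1 in Meg3, Mir341, Mir370 and Mir1188 in Rian and Mir1897 in Sox2ot. The mature products of Mir675 and Mir770 are shown as examples, 1 gene from each of the chromosome 7 and chromosome 12 imprinted regions. Bases 2 to 8, the seed, are in capitals.
mmu-miR-675-5p (H19): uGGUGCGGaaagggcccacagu
mmu-miR-675-3p (H19): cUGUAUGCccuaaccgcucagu
mmu-miR-770-5p (Meg3): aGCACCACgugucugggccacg
mmu-miR-770-3p (Meg3): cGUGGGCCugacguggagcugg
They lie at chr7:142577112-142577133 and chr7:142577078-142577099 on the minus strand and at chr12:109563710-109563731 and chr12:109563744-109563765 on the plus strand, and no seed is shared among them. The table listed all of these microRNA genes at 0 in all 5 libraries, and mature microRNAs, which have no poly(A) tail, are not measured by libraries of this kind. The values that follow are therefore those of the host RNAs.

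The libraries differed in ways that touch every comparison. Values are abundances per transcript length, FPKM or TPM, which the header does not state, and the depth behind them is unknown. Values are compared between genes within a library, and between libraries on the scale of log2(value + 1). The IgG library stood apart: it listed 11825 gene IDs above 0, against 17412 to 18745 in the other 4 libraries, and 360 of 5403 genes above 10 in all of those others were at exactly 0 in it. The mitochondrial ribosomal RNA mt-Rnr2 was listed at 11.40 and 11.06 in eIF4E, 29258.14 in IgG, and 946.97 and 934.90 in Input, and its part in the IgG values below was not tested. Genes reaching 1 or more in 2 or more libraries were tested, 12769 in all. Over them the median log2 difference was 0.16 for eIF4E against Input, 0.55 for eIF4E against IgG and −0.43 for IgG against Input. All 9 cortex markers, Emx1, Pax6 and Eomes among them, were above 0 in every library. Of the 8 lncRNAs, 6 entered those 12769 genes, and Neat1 and Kcnq1ot1 did not.

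The IgG library held the highest level of 6 of the 8 RNAs, all but Neat1 and Sox2ot. Summed, the 8 RNAs made up 0.0171% and 0.0140% of the column total in the eIF4E libraries, 0.227% in the IgG library, and 0.00829% and 0.00771% in the Input libraries. In IgG, Malat1 and Meg3 together were 82.2% of that sum. Of the 6 RNAs that passed the filter, 5 had a higher value in IgG than in both eIF4E libraries, against 36.5% of all genes tested, and all 6 had a higher value in IgG than in both Input libraries, against 41.9% of all genes tested. None of the 6 was lower in IgG than in both Input libraries, against 55.9% of all genes tested, and 1 of the 6, Sox2ot, was lower in IgG than in both eIF4E libraries, against 59.9%. Malat1, Meg3, Miat and Rian, 4 of the 6, had IgG above both eIF4E libraries and these above both Input libraries, an order held by 22.3% of all genes tested. H19, 1 of the 6, had IgG highest and eIF4E lowest, an order held by 10.6%. On the scale of value + 1, 4 of the 6 were at least 4-fold higher in IgG than in Input, beside 16.5% of all genes tested, and 4 of the 6 were at least 4-fold higher in IgG than in eIF4E, beside 7.28%. Nothing is read from these counts, since the RNAs were chosen with the values known. Abundances are shares of a library, and how much RNA each precipitate yielded is not given.

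**Figure D1:**
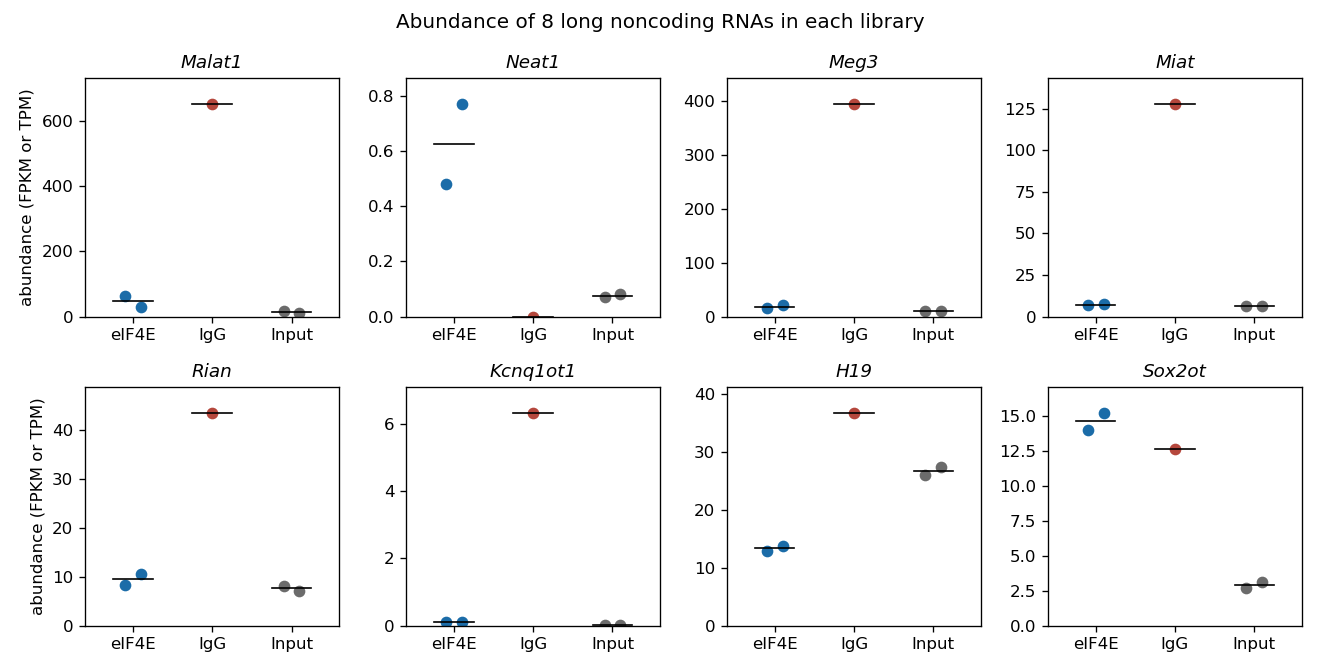
Abundance (FPKM or TPM, linear axis from 0, own scale per panel) of each lncRNA in each library, with points for libraries and a line for the mean of the group. The single IgG point is the highest for Malat1, Meg3, Miat, Rian, Kcnq1ot1 and H19, whereas Neat1 is at 0 there and Sox2ot is at 12.64, just under both eIF4E points.

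The RNAs of nuclear bodies came first. Malat1 (chromosome 19, 5795690 to 5802672), a speckle-associated RNA, measured 64.22 and 30.43 in eIF4E, 651.78 in IgG, and 16.24 and 11.26 in Input. Both eIF4E libraries lay above both Input libraries, and IgG lay above all of them. The eIF4E libraries differed from each other by 2.11-fold, the widest gap between eIF4E replicates among the 8 RNAs, where the other 7 differed by 1.08-fold to 1.60-fold. The log2 difference was 1.64 for eIF4E against Input (SE 0.39), −3.85 for eIF4E against IgG (SE 0.47) and 5.49 for IgG against Input (SE 0.47). Without eIF4E replicate 1 the difference from Input was 1.11, and without eIF4E replicate 2 it was 2.17. In a ranking of all gene IDs by value, Malat1 was number 2153 and 3783 in eIF4E, 71 in IgG, and 4955 and 5801 in Input. Malat1 is among the most abundant transcripts of many whole-cell preparations. In Input it exceeded 61.2% and 54.6% of the genes tested. No whole-cell library was among the samples, and the cause of this place was not tested.

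Neat1 (chromosome 19, 5824708 to 5845480), the paraspeckle scaffold, lies 22.0 kb from Malat1. It measured 0.48 and 0.77 in eIF4E, was listed at 0 in IgG, and measured 0.07 and 0.08 in Input. It was above 0 in all eIF4E and Input libraries, higher in eIF4E, but below 1 everywhere. Its level never exceeded that of more than 2.88% of the genes tested in any library, so its values rest on little signal. Unlike Malat1, its neighbour, it was not among the RNAs with a high value in IgG, although a listed 0 there can also be a failed estimate.

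Miat (chromosome 5, 112213228 to 112228948) forms its own nuclear foci in neurons. It measured 6.92 and 7.55 in eIF4E, 127.88 in IgG, and 6.27 and 6.09 in Input. The log2 difference of eIF4E against Input was 0.20 (SE 0.08), and it was of the other sign after median-of-ratios scaling (−0.086) and quantile normalization (−0.37). Against IgG the difference was −3.97 (SE 0.10). Within each library Miat exceeded 36.7% and 38.7% of the genes tested in eIF4E, 93.7% in IgG, and 43.3% and 43.2% in Input. By that measure, which does not depend on the scaling of a library, its place was lower in eIF4E than in Input.

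The maternally expressed RNAs of the Dlk1-Dio3 cluster on chromosome 12 were described next. Meg3 (109540996 to 109571729), which has been studied as a growth-suppressing and chromatin-associated RNA, measured 16.29 and 20.59 in eIF4E, 393.78 in IgG, and 10.20 and 10.44 in Input. The groups did not overlap. The log2 difference was 0.77 for eIF4E against Input (SE 0.12), −4.35 for eIF4E against IgG (SE 0.15) and 5.12 for IgG against Input (SE 0.15). Meg3 was number 131 of all gene IDs in IgG, and between 4864 and 6034 in the other libraries.

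Rian (109603945 to 109661716) starts 32.2 kb beyond the end of Meg3, and 11 small nucleolar RNA genes and 3 microRNA genes lie within its span. It measured 8.29 and 10.62 in eIF4E, 43.56 in IgG, and 8.12 and 7.11 in Input. The lower eIF4E value and the higher Input value lay 0.17 apart, and the log2 difference of 0.27 (SE 0.14) was −0.017 after median-of-ratios scaling and −0.22 after quantile normalization. Against IgG the difference was −2.10 (SE 0.17).

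Meg3, Rian and the microRNA host Mirg further downstream have been described as parts of one long maternal transcription unit, but their ratios were not constant. Meg3 was 1.97 and 1.94 times Rian in eIF4E, 9.04 times in IgG, and 1.26 and 1.47 times in Input. It was 12.8 and 62.4 times Mirg in eIF4E, 28.8 times in IgG, and 5.67 and 7.51 times in Input. Mirg itself was low outside IgG, at 1.27 and 0.33 in eIF4E, 13.68 in IgG, and 1.80 and 1.39 in Input. The ratio of 62.4 therefore rests on a value of 0.33 in 1 library. Such ratios are taken within a library and do not depend on its scaling. The excess of Meg3 over both RNAs was greater in IgG than in either Input library. Over Mirg it was greater still in eIF4E replicate 2, where Mirg was lowest. Rtl1, whose gene model overlaps Meg3 and Rian, was at or under 0.06 in every library.

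The lncRNAs of the chromosome 7 imprinted region showed 2 different patterns. Kcnq1ot1 (143213111 to 143296547), which lies inside Kcnq1, measured 0.10 and 0.11 in eIF4E, 6.33 in IgG, and 0.01 in both Input libraries. Values of 0.01 are the smallest that the table's 2 decimals can show, so no fold against Input is given. Kcnq1, the protein-coding gene it overlaps, measured 0.40 and 0.96 in eIF4E, was listed at 0 in IgG, and measured 0.64 and 0.57 in Input. Reads from both genes cannot be told apart by strand in these libraries.

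H19 (142575530 to 142578146) was the only one of the 8 RNAs below Input in both eIF4E libraries, against 37.6% of all genes tested. It measured 12.84 and 13.81 in eIF4E, 36.69 in IgG, and 25.92 and 27.33 in Input. The 3 groups did not overlap, and the log2 difference was −0.95 for eIF4E against Input (SE 0.07), −1.40 for eIF4E against IgG (SE 0.09) and 0.45 for IgG against Input (SE 0.09). H19 was the most abundant of the 8 RNAs in Input, and stood below Malat1 and Meg3 in eIF4E and IgG. Igf2, its imprinted neighbour that encodes a growth factor, measured 8.54 and 8.48 in eIF4E, 91.64 in IgG, and 34.76 and 42.06 in Input, in the same order of groups as H19.

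H19 is also known in mesenchymal and vascular cells, so their markers are given beside it. The summed level of the 10 meningeal and mesenchymal markers was 97.5 and 93.5 in eIF4E, 271.4 in IgG, and 140.8 and 122.1 in Input. The sum is not a level shared by its members. Col3a1 alone gave 241.79 of it in IgG, and Dcn (26.27 and 28.51 in eIF4E, 9.97 and 10.27 in Input) and Lum (13.36 and 14.89 in eIF4E, 5.71 and 5.00 in Input) lay the other way from the sum and from H19 between eIF4E and Input. Ogn and Foxc1, below 1 in every library, also lay the other way. Pdgfra overlapped between eIF4E and Input, and the other members were lower in eIF4E. Of the 10 markers, 6 were at 0 in IgG (Dcn, Lum, Col5a1, Pdgfra, Foxc1 and Ogn) and none in the other libraries. The 11 endothelial and mural markers summed to 136 and 129 in eIF4E, 35.0 in IgG, and 324.5 and 333.5 in Input, with Cldn5, Flt1, Pdgfrb and Esam at 0 in IgG. Between eIF4E and Input, Rgs5 lay the other way from this sum (8.32 and 7.80 in eIF4E, 17.49 in IgG, 2.21 and 2.73 in Input). Kdr and Cdh5 overlapped between eIF4E and Input, and the other members were lower in eIF4E. Rgs5 and Cdh5 (2.84) were highest in IgG. The 9 erythroid markers summed to 6446 and 4843 in eIF4E, 2521 in IgG, and 17160 and 18700 in Input. Among them Alas2 was highest in IgG (31.00 and 29.66 in eIF4E, 238.61 in IgG, 69.90 and 71.12 in Input), and the others were lowest there. The 10 microglial markers summed to 29.5 and 22.2 in eIF4E, 22.0 in IgG, and 55.7 and 64.5 in Input. C1qb alone gave 21.85 of the IgG sum (4.90 and 5.64 in eIF4E, 16.56 and 18.61 in Input), and 8 of the 10 were at 0 in IgG. P2ry12 lay the other way from the microglial sum between eIF4E and Input (0.79 and 0.89 in eIF4E, 0.60 and 0.37 in Input). Cx3cr1, Aif1 and Tyrobp overlapped between eIF4E and Input, and the other microglial markers were lower in eIF4E. The part of these cell types in the values of H19 was not tested. In such bulk samples, fewer cells of a type and less RNA per cell cannot be told apart.

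Sox2ot (chromosome 3, 34560381 to 34677993) differed from the others in that eIF4E and IgG stood close together. It measured 14.03 and 15.24 in eIF4E, 12.64 in IgG, and 2.7 and 3.11 in Input. Both eIF4E libraries and the IgG library were far above both Input libraries. The log2 difference was 2.00 for eIF4E against Input (SE 0.10), greater than for 93.2% of the genes tested, and 0.20 for eIF4E against IgG (SE 0.12). The difference from IgG was of the other sign when every library was given the same total (−0.13).

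Sox2, the progenitor transcription factor gene that lies within the span of Sox2ot, did not share this pattern. It measured 2.75 and 1.91 in eIF4E, 0.34 in IgG, and 2.65 and 2.58 in Input. Sox2ot was 5.10 and 7.98 times as abundant as Sox2 in eIF4E, 37.2 times in IgG, and 1.02 and 1.20 times in Input. The log2 difference of Sox2 for eIF4E against Input was −0.13 (SE 0.16), and 0.04 with the same total in every library. Gm42205, a further gene within the span of Sox2ot, was listed at 0 in all 5 libraries.

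**Figure D2:**
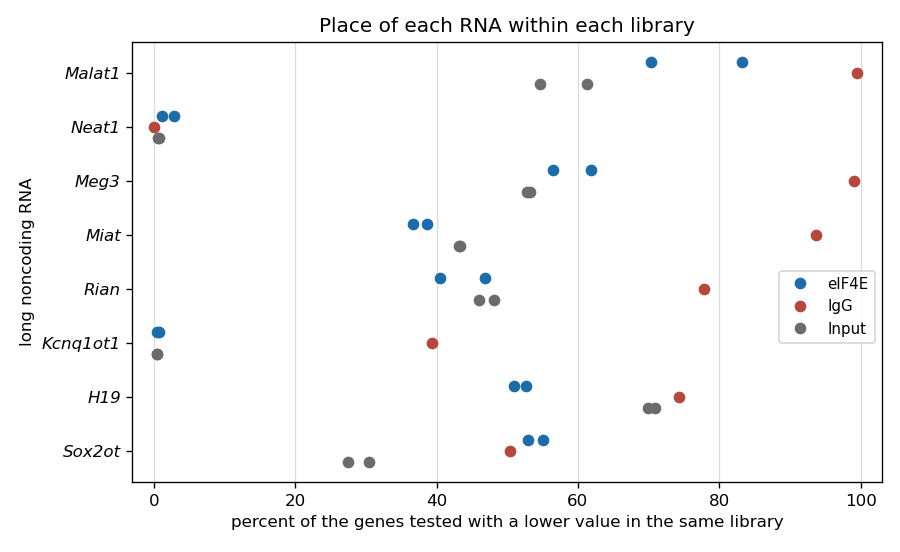
Percent of the 12769 genes tested that had a lower value than the lncRNA in the same library (horizontal axis), with a point for each eIF4E, IgG and Input library. Malat1, Meg3 and Miat are above 90% in IgG only, H19 lies lower in eIF4E (51.0% and 52.7%) than in Input (69.9% and 70.9%), and Sox2ot lies higher in eIF4E (53.0% and 55.1%) than in Input (27.4% and 30.5%).

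Placed within each library, the RNAs changed order between the fractions. In both eIF4E libraries the order from high to low was Malat1, Meg3, Sox2ot, H19, Rian, Miat, Neat1, Kcnq1ot1. In IgG it was Malat1, Meg3, Miat, Rian, H19, Sox2ot, Kcnq1ot1, Neat1. In both Input libraries it was H19, Malat1, Meg3, Rian, Miat, Sox2ot, Neat1, Kcnq1ot1. Neighbours in these orders were not always apart. The means of Malat1 and Meg3 in eIF4E (47.3 and 18.4) and in Input (13.8 and 10.3) differed by less than the gap between the replicates of Malat1. The same held in eIF4E for Meg3 and Sox2ot (18.4 and 14.6), beside the gap between the replicates of Meg3, and for Rian and Miat (9.46 and 7.24), beside that of Rian.

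Set against all genes, Sox2ot and Malat1 had the largest excess over Input in eIF4E among the 6 RNAs tested, and Rian and Miat lay near the median gene. Of the 6 tested, 5 had both eIF4E libraries above both Input libraries, a pattern held by 50.3% of the genes tested, and nothing is read from the count. Relative to the median gene, the log2 difference of eIF4E against Input was 1.48 for Malat1, 1.84 for Sox2ot, 0.61 for Meg3, 0.11 for Rian, 0.04 for Miat and −1.11 for H19. For Malat1, Sox2ot, Meg3 and H19 the sign was kept after median-of-ratios scaling, quantile normalization and rescaling to the same total, whereas Rian (−0.11) and Miat (−0.26) were of the other sign after quantile normalization. IgG against Input gave larger values relative to the median gene, at 5.91 for Malat1, 5.55 for Meg3, 4.59 for Miat, 2.80 for Rian, 2.23 for Sox2ot and 0.87 for H19. These comparisons share the Input libraries, and the IgG values rest on 1 library.

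**Figure D3:**
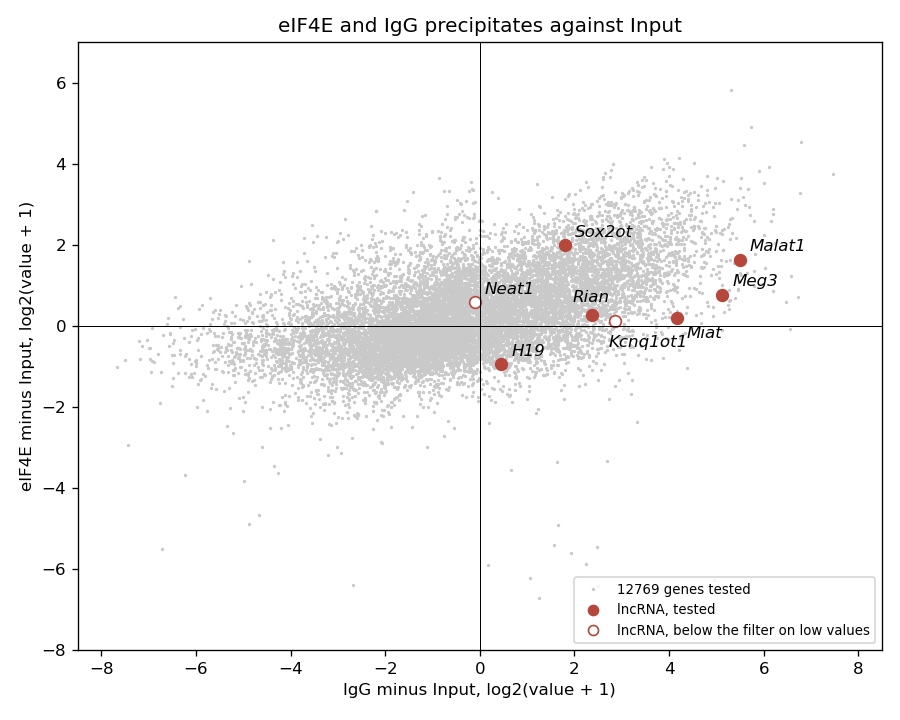
Difference from Input in log2(value + 1) for the IgG library (horizontal axis) and the mean of the eIF4E libraries (vertical axis), with a grey point for each of the 12769 genes tested and red points for the lncRNAs, open where the RNA was below the filter on low values. Malat1, Meg3 and Miat lie far to the right, at 5.49, 5.12 and 4.17 on the horizontal axis, and H19 is the only one of the 8 below 0 on the vertical axis.

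Genes with the most similar profile over the 5 libraries were looked up for each of the 6 RNAs, by the Euclidean distance between centred log2(value + 1) values, among 11022 genes. Nearest to Malat1 were Cnot6l, Adgrl3 and Ccdc88a (distances 0.69, 0.73 and 0.83), and nearest to Meg3 were Ttc41, P3h3 and Star (0.29 each). Nearest to Miat were Smarcal1, Cep250 and Adam19 (0.17, 0.24 and 0.26), of which Smarcal1 measured 41.40 and 45.32 in eIF4E, 730.95 in IgG, and 34.76 and 34.70 in Input. For Rian they included Srrm4 and Spry1 (0.13 and 0.17), and for H19 Ascc2 and Mapk8ip2 (0.09 and 0.10). For Sox2ot they were Gpr161, Polr3k and Strn (0.05, 0.13 and 0.14). Among the 6 lncRNAs themselves the closest pair was Meg3 and Miat (0.85), followed by Meg3 and Malat1 (1.36). Many other genes lay closer to each of them. Miat was number 31 in nearness to Meg3, and Meg3 was number 66 in nearness to Miat. Malat1 was number 115 for Meg3, and Meg3 was number 70 for Malat1.

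Other lncRNAs and related gene lists were then examined with a test across all genes. Over all genes tested, limma called 43.3% higher and 30.6% lower in eIF4E than in Input, and 53.1% higher and 30.6% lower in eIF4E than in IgG (Benjamini-Hochberg adjusted p under 0.05). As counts these were 5535 and 3906 against Input, and 4417 and 5256 after median-of-ratios scaling, 4297 and 5145 after quantile normalization, and 6503 and 2748 with the same total. Against IgG they were 6785 and 3912, and 4609 and 4835 after quantile normalization.

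Of 24 other lncRNAs tested from a list of 38, 14 were higher in eIF4E than in Input and 2 lower, also when the IgG library was left out of the fit. Without Input replicate 1, 1 of them was lower. Their median log2 difference was 0.83, beside 0.16 for all genes. The shares called higher and lower over all genes were 43.3% and 30.6%. Tug1, a widely expressed lncRNA found in nucleus and cytoplasm, measured 57.65 and 61.92 in eIF4E, 27.83 in IgG, and 4.05 and 3.40 in Input. On the scale of value + 1, as for all folds of tested genes, it was 2.11-fold higher than in IgG and 12.9-fold higher than in Input (limma adjusted p = 8.9e-04 and 6.1e-05). Norad, a cytoplasmic lncRNA that binds Pumilio proteins, rose 5.59-fold over Input (adjusted p = 2.1e-04), at 107.22 and 109.62 in eIF4E against 15.85 and 21.71 in Input. Against IgG (153.92) it did not pass (0.706-fold, limma adjusted p = 0.055), though it was called lower under all 3 other scalings.

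The other lncRNAs that fell below Input were Zfas1, a small nucleolar RNA host gene, and Mir124a-1hg, a host of the neuronal miR-124. Zfas1 measured 5.35 and 5.49 in eIF4E, 20.36 in IgG, and 14.74 and 12.82 in Input (0.435-fold against Input, limma adjusted p = 4.6e-04). Mir124a-1hg measured 3.20 and 2.00 in eIF4E, 54.11 in IgG, and 6.36 and 5.01 in Input (0.534-fold, adjusted p = 0.014), and was no longer called when Input replicate 1 was left out. Both were also lower than in IgG (adjusted p = 1.8e-04 and 1.4e-04).

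Against IgG, 11 of the 24 other lncRNAs were higher in eIF4E and 11 lower, beside 53.1% and 30.6% of all genes. Their median log2 difference was −0.18, beside 0.55 for all genes. After quantile normalization 7 were higher and 12 lower, and with the same total 8 and 12. The IgG value was the highest of all 5 libraries for 12 of the 24, and for 32.7% of all genes tested. At the other end, 5 of the 24 were listed at 0 in IgG, as were 2651 of the 12769 genes.

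Protein-coding imprinted genes, made from the same clusters and others, went both ways, as did all genes tested. Of 30 tested, 14 were higher in eIF4E than in Input and 10 lower, beside 43.3% and 30.6% of all genes. The counts were 12 and 13 after median-of-ratios scaling, and 18 and 8 with the same total. The median log2 difference was 0.19, beside 0.16 for all genes. Impact, a translational regulator, rose 4.97-fold over Input (limma adjusted p = 1.1e-04), and Ube3a, the ubiquitin ligase of the Snrpn cluster, rose 3.15-fold (adjusted p = 1.7e-04). Impact was not called against IgG (1.23-fold, adjusted p = 0.078), and Ube3a, at 19.88 and 20.51 in eIF4E and 79.98 in IgG, was lower than in IgG (adjusted p = 1.1e-04). Igf2 fell to 0.242 of Input and Cdkn1c, a cell cycle inhibitor from the Kcnq1ot1 domain, to 0.286 (adjusted p = 1.5e-04 and 1.6e-04), and both were also lower than in IgG (adjusted p = 4.1e-05 and 0.0086). Against IgG, 15 of the 30 were higher and 10 lower, beside 53.1% and 30.6% of all genes. The counts were 12 and 14 after quantile normalization, and 13 and 14 with the same total. The median log2 difference was 0.31, beside 0.55 for all genes.

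Paraspeckle proteins are the partners of Neat1. Of 34 of their mRNAs tested, 20 were higher in eIF4E than in Input and 9 lower (15 and 11 after median-of-ratios scaling), beside 43.3% and 30.6% of all genes, with a median log2 difference of 0.37, beside 0.16 for all genes. Sfpq, a core paraspeckle protein, measured 258.66 and 262.60 in eIF4E, 118.85 in IgG, and 46.62 and 45.63 in Input, a rise of 5.55-fold over Input and 2.18-fold over IgG (limma adjusted p = 4.7e-05 and 6.7e-05). Pspc1, its partner, was 1.97-fold higher than in IgG (adjusted p = 0.0024) and 3.79-fold higher than in Input (adjusted p = 2.1e-04). Rbm14, which is needed for paraspeckle assembly, fell to 0.438 of Input (adjusted p = 9.1e-05), and Smarcb1, a chromatin remodelling subunit, fell to 0.631 (adjusted p = 3.2e-04). Against IgG, Rbm14 did not pass (0.907-fold, adjusted p = 0.074, but called lower under all 3 other scalings) and Smarcb1 was 5.40-fold higher (adjusted p = 1.6e-05). Over the list, 18 were higher in eIF4E than in IgG and 7 lower, beside 53.1% and 30.6% of all genes. The counts were 14 and 11 after quantile normalization, and 15 and 14 with the same total. The median log2 difference against IgG was 0.35, beside 0.55 for all genes.

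**Figure D4:**
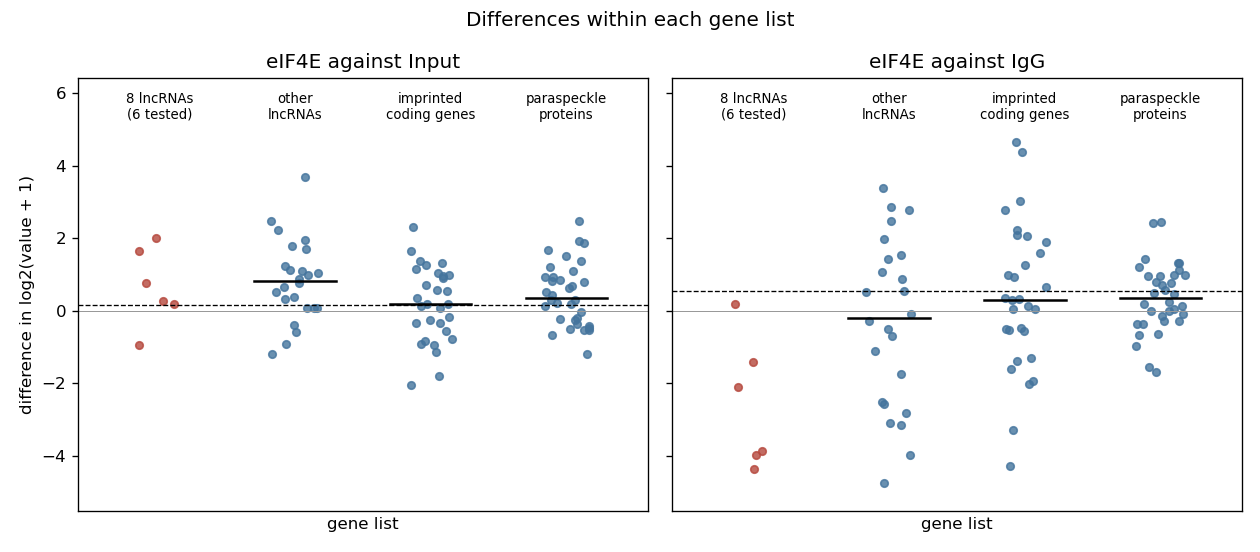
Difference in log2(value + 1) for eIF4E against Input (left) and eIF4E against IgG (right), with a point for each gene tested, solid lines for the median of the comparison lists and a dashed line for the median of all genes tested. Of the 6 lncRNAs, which were chosen with these values known, 5 lie between −1.40 and −4.35 in the comparison with IgG. The comparison lists spread to both sides of 0. IgG lay above both eIF4E libraries for 36.5% of all genes tested.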

How the data were processed

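The deposited table gave 1 value per gene and library, never negative and with 2 decimals. The authors made these FPKM or TPM values (which of them is not stated) on the mouse build mm10; STAR 2.7.9a and RSEM 1.3.3 are the tools named, per the submitters' processing notes. Libraries were made by Smart-seq2, per the labels' protocols. The sources used here do not give the annotation or any filter. Column totals were 560076 to 848550 after 286 repeated rows were dropped, and depth is unknown.

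Groups came from the sample titles. The 12769 genes reaching 1 or more in 2 or more libraries were fitted as log2(value + 1) with limma 3.58.1 in R 4.3.3 over all 5 libraries (3 groups, eBayes with trend, two-sided, adjusted over all genes). The fit has 2 residual degrees of freedom, and IgG, with 1 library, borrows the spread of the other groups. Neat1 and Kcnq1ot1 were not tested. The fitting code was tested on simulated data. Coordinates and sequences came from RefSeq on GRCm38.p6 by symbol.

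The 8 RNAs and the gene lists were chosen with earlier results of these data known. From each list, the 2 largest changes in each direction among genes past the threshold for eIF4E against Input were named. For each tested RNA, the 3 nearest profiles were named among genes with a mean log2 value of at least 1 and no predicted or clone name; for Rian and H19, 1 of the 3 is not reported here.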

Additional observations from a re-analysis of the deposited data

How the results depend on the processing

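Of 176 recomputed counts of calls, 169 lay within 1.5 times the reported count. Other lncRNAs lower in eIF4E than in Input numbered 1 with no filter, and 1 to 3 when single replicates were left out (1 without Input replicate 1), in place of 2. Against IgG, other lncRNAs higher in eIF4E numbered 7 after quantile normalization and 6 among genes above 0 in all 5 libraries, where genes higher in eIF4E numbered 4389 over the whole table. Paraspeckle mRNAs lower in eIF4E than in IgG numbered 11 after quantile normalization and 14 with the same total. Of the log2 differences of the 8 RNAs, 5 of 201 changed sign: for eIF4E against Input Miat (−0.086 and −0.37) and Rian (−0.017 and −0.22) after median-of-ratios scaling and quantile normalization, and for eIF4E against IgG Sox2ot (−0.13) with the same total. Of 286 recomputed differences of the 12 named list genes and Sox2, 271 kept their direction and call and 4 changed sign. These were Sox2 for eIF4E against Input with the same total (0.040) and when replicates were left out (−0.31 to 0.053), Sox2 for eIF4E against IgG after quantile normalization (−0.44), and Impact for eIF4E against IgG with the same total (−0.028). The cause of these changes was not tested. With the replicate number as a block, in eIF4E and Input only, 5401 genes were higher and 3749 lower. Same-numbered deviations correlated at 0.0236 across genes, and no label says that a number marks a shared sample, so the numbers are not taken as pairs. Leaving out the IgG library, a choice made after seeing the data, gave 5542 and 3907. Over the scalings the median gene moved between −0.11 and 0.36 for eIF4E against Input and between −0.04 and 0.55 for eIF4E against IgG. Depth is unknown, so low values such as those of Neat1 and Kcnq1ot1 have no counting interval.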

Other observations

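Some lncRNAs outside the naming rule, chosen after their values were seen, had high values in the IgG library. Airn, an antisense lncRNA of the imprinted Igf2r region, measured 1.31 and 1.64 in eIF4E, 64.71 in IgG, and 0.83 and 0.65 in Input. Xist, the RNA that coats the inactive X chromosome, measured 0.25 and 0.32 in eIF4E, 25.24 in IgG, and was listed at 0 in both Input libraries. Its value cannot be told apart by strand from that of Tsix (0.36 and 0.47 in eIF4E, 4.52 in IgG, 0.27 and 0.39 in Input). Crnde measured 0.14 and 0.45 in eIF4E, 31.13 in IgG, and 0.31 and 0.38 in Input. Xist, Tsix and Crnde reached 1 in the single IgG library only, so they did not pass the filter and were not tested. In contrast, the X-linked lncRNA Ftx measured 5.57 and 6.93 in eIF4E, was listed at 0 in IgG, and measured 0.72 and 0.41 in Input. Pantr1, the most abundant RNA of the list of other lncRNAs in Input, measured 1186.84 and 909.16 in eIF4E, 264.91 in IgG, and 1137.34 and 865.10 in Input.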
